A study of Mus musculus with 9 samples.

Results

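The small nucleolar RNAs (snoRNAs) and small Cajal body RNAs (scaRNAs), most of which are known to be encoded inside other genes, were followed in TAMH cells, a line of mouse hepatocytes derived from mice transgenic for transforming growth factor alpha. They were taken as every feature of the array with a symbol that starts Snord, Snora or Scarna followed by digits, without Snord118 and Snord13, and features with identical values on all 9 arrays were counted once. This gave 109 distinct features of 33883 on the array: 63 of the C/D class (Snord), 37 of the H/ACA class (Snora) and 9 of the Scarna class. Of the 109, 78 carried 1 gene symbol and 31 carried several, often the snoRNA together with its host gene, so that the signal of such a feature cannot be assigned to 1 gene.

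The groups were cells given diquat at 18 µM, cells given paraquat at 126 µM and control cells in medium alone, each for 9 h and each on 3 Affymetrix Mouse Gene 2.1 ST arrays. Diquat and paraquat are bipyridylium herbicides that pass electrons to oxygen inside cells. All 3 groups were kept in the same medium with dexamethasone, nicotinamide, gentamicin, insulin, transferrin and selenium, and all came from 1 cell line. Each group came from 3 dishes that the labels do not call independent cultures, and the p-values therefore speak only to dish-to-dish spread, part of which may be technical.

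SnoRNAs guide chemical modification of ribosomal RNA in the nucleolus: C/D snoRNAs direct methylation of riboses, and H/ACA snoRNAs direct conversion of uridine to pseudouridine. ScaRNAs do the same for the RNAs of the spliceosome in Cajal bodies. Most of these RNAs in mammals have no promoter of their own. They are released from a spliced intron of a host gene, after the intron lariat is opened and its ends are trimmed, and are protected by their core proteins. Many hosts encode ribosomal proteins or translation factors, and others, such as the Snhg genes and Gas5, are long noncoding RNAs.

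The arrays as a whole were alike. Pearson correlations between arrays across features lay between 0.9937 and 0.9989, and array medians lay between 5.95 and 6.04 on the log2 scale. Albumin (Alb), the main plasma protein made by hepatocytes, averaged 12.73 in diquat cells, 12.73 in paraquat cells and 12.73 in control cells. Of 7 measured hepatocyte markers, Ttr and Fga fell with both compounds. Of 4 cholangiocyte and progenitor markers Sox9 rose with both compounds and Krt7 fell with diquat. The summed linear level of those 4, as log2, ran from 11.26 to 11.32 in diquat cells and from 11.26 to 11.31 in paraquat cells. In control cells it ran from 11.07 to 11.14. This sum follows Sox9 (0.45 with diquat), since Krt7, Krt19 and Epcam had -0.29, -0.16 and 0.02 with diquat. Summed stellate and fibroblast markers ran from 9.55 to 9.68 with diquat and 9.64 to 9.68 with paraquat, against 9.74 to 9.85. For hepatocyte markers the sums were 14.14 to 14.17 and 14.12 to 14.19, against 14.18 to 14.22. The part of these in the snoRNA results was not tested. No stellate, myeloid or endothelial marker passed the test. In bulk RNA, fewer cells of a type and less RNA per cell cannot be told apart.

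Hairpins of 7 microRNAs are not separate from these RNAs in the genome annotation, because a microRNA lies inside or across the snoRNA or scaRNA. The hairpins of the 3 Scarna features that carry a microRNA symbol, and that of Snord33 in Rpl13a, are shown because an array signal there can come from either product. Capitals mark the bases inside the RefSeq span of the named member, and the sequences are from RefSeq with build GRCm38.p6.
Mir1843b in Scarna3a, chr1:159340358-159340423, plus strand: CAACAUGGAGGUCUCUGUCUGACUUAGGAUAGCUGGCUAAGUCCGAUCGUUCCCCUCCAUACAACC
Mir1843a in Scarna3b, chr12:80391613-80391677, minus strand: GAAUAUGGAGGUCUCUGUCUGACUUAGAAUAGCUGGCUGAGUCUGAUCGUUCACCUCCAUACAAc
Mir3069 in Scarna13, chr12:105031077-105031141, minus strand: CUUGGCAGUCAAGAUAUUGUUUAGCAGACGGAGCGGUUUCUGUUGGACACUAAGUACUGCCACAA
Mir5121 across the end of Snord33, chr7:45126918-45126991, minus strand: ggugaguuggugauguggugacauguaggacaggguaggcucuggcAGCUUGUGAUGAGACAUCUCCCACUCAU

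The Mir5121 hairpin shares 28 of its 74 bases with Snord33, and that stretch holds UGAUGA, the core of the C box that names the C/D class. The letters UGAUGA, searched on the RNA strand as listed, occur in 27 of 1005 mouse hairpins of 39 to 147 bases, or 2.69%. The paralogues Scarna3a and Scarna3b give microRNAs whose listed starts differ by 1 base, so their seeds (bases 2 to 8, in capitals) differ.
mmu-miR-1843a-5p: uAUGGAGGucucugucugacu
mmu-miR-1843b-5p: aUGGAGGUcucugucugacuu

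The first comparison asked whether diquat changed these RNAs. Many C/D and H/ACA features were higher in diquat cells, and those that passed the test were 1.13 to 1.8 times as high as in control cells. By limma with Benjamini-Hochberg adjustment over all 33883 features, 18 of the 109 rose at an adjusted p under 0.05 (16.5%) and 0 fell, against 2.67% of all features that rose and 1.58% that fell (4.25% in either direction). The 18 comprised 7 of 63 C/D features, 11 of 37 H/ACA features and 0 of 9 Scarna features. At an unadjusted p under 0.05, 65 of the 109 were higher (59.6%, against 8.9% of all features). The 3 diquat arrays all lay above the 3 control arrays for 45 of the 109 (41.3%, against 8.85% of all features), and all lay below for 0 of the 109 (against 9.27%).

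These counts rested on few arrays. Over all 33883 features, the 905 rises with diquat became 575, 480 and 535 without control replicates 1, 2 and 3. They became 722 without diquat replicate 1 and 514 in a fit of diquat and control arrays alone. Without diquat replicate 2, paraquat replicate 2 or paraquat replicate 3 they became 1090, 735 and 706. Among the 109, the 18 became 3 without control replicate 1, 7 without control replicate 2 and 5 without control replicate 3. Without diquat replicate 1 they became 29. Leaving out diquat replicate 2, paraquat replicate 2 or paraquat replicate 3 gave 11 each. A fit of diquat and control arrays alone gave 4. With control replicate 1 and diquat replicates 1 and 3 all left out, a setting chosen after seeing the data that leaves 1 diquat array, 1 feature rose, and it was not among the 18.

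Among H/ACA features, the largest rise was that of Snora28, which in human cells guides pseudouridylation of the small-subunit ribosomal RNA. Snora28 had log2 values of 7.86, 8.15 and 8.30 in diquat cells and 7.53, 7.42 and 7.54 in paraquat cells, against 7.08, 7.14 and 7.54 in control cells. All diquat arrays were above all control arrays, whereas the paraquat values overlapped the highest control array. Its log2 fold change with diquat was 0.85 ± 0.132 (SE), a 1.8-fold change with an adjusted p of 0.00711.
Snora23, inside Ipo7, had log2 values of 9.56, 9.85 and 9.83 in diquat cells and 9.61, 9.73 and 9.68 in paraquat cells, against 9.18, 8.89 and 9.39 in control cells. Neither treated group overlapped the controls. With diquat Snora23 rose by 0.59 ± 0.118 (SE, adjusted p = 0.0237), and with paraquat its log2 fold change was 0.52, with an adjusted p of 0.0516. Snora21, inside Rpl23, had log2 values of 10.38, 10.65 and 10.92 in diquat cells and 10.54, 10.40 and 10.35 in paraquat cells, against 9.94, 10.13 and 10.15 in control cells. It rose by 0.58 with diquat (adjusted p = 0.0285). Here the lowest diquat array was diquat replicate 1 and the highest was diquat replicate 3, the order seen for most of these RNAs.

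Snora20, in the chaperonin gene Tcp1, rose by 0.57 with diquat (adjusted p = 0.0276), and Snora74a rose by 0.53 (adjusted p = 0.0307). Snora69, inside Rpl39, had log2 values of 8.17, 8.23 and 8.50 in diquat cells and 8.21, 8.38 and 8.34 in paraquat cells, against 7.93, 7.65 and 7.97 in control cells. Both treated groups lay above the controls on every array. The log2 fold changes of Snora69 were 0.45 with diquat (adjusted p = 0.0419) and 0.46 with paraquat (adjusted p = 0.0485). Of 2 features annotated to Snora17 and Snhg7, one rose by 0.38 with diquat (adjusted p = 0.0142) and the other had a log2 fold change of 0.28 (adjusted p = 0.222). The remaining H/ACA features past the test were 4: Snora73b, described with the pre-rRNA cleavage RNAs, and, named after their values were seen, Snora78 (0.23), the feature annotated to Snora43 and Snhg7 (0.29) and the feature annotated to Snora52 and the ribosomal protein gene Rplp2 (0.17).

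Among C/D features the largest rise past the test was that of Snord52, at 0.80 ± 0.162 (SE, adjusted p = 0.0257). Snord52 had log2 values of 7.01, 7.30 and 7.78 in diquat cells and 7.19, 7.01 and 7.0 in paraquat cells, against 6.41, 6.63 and 6.65 in control cells. Both treated groups lay above the controls on all arrays. With paraquat its log2 fold change was 0.50, with an adjusted p of 0.19.
Snord65 had log2 values of 8.35, 8.69 and 8.65 in diquat cells and 8.35, 8.57 and 8.37 in paraquat cells, against 7.98, 7.76 and 8.03 in control cells. It rose with both compounds, by 0.64 with diquat (adjusted p = 0.00884) and by 0.51 with paraquat (adjusted p = 0.0322). The paraquat call was lost in 8 of 18 other settings, among them the replicate block (adjusted p = 0.0596). Snord15a, which in human cells guides methylation of the large-subunit ribosomal RNA, had the smallest adjusted p of these RNAs with diquat. Its log2 values were 8.11, 8.21 and 8.09 in diquat cells and 8.12, 7.95 and 7.96 in paraquat cells, against 7.59, 7.73 and 7.60 in control cells. The arrays of each group lay close together and no treated array reached the controls. Snord15a rose by 0.50 ± 0.0598 with diquat (SE, adjusted p = 0.00173) and by 0.37 ± 0.0598 with paraquat (SE, adjusted p = 0.0108).

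The feature annotated to Snord14a and Rps13 rose by 0.64 with diquat (adjusted p = 0.0259). The other 3 C/D features past the test, of which Snord22 was on a list and the others were named after their values were seen, were Snord22 (0.38), Snord43 (0.37) and the feature annotated to Snhg16 and Snord1a (0.30). Snora28, Snord65 and Snord15a kept their call with diquat under each of 17 other settings, named with the methods, though none of the 3 did so when the 3 arrays named above were left out together. The other named calls held less well: with diquat, Snora69 lost its call in 12 of 18 settings, Snora21, Snora74a and Snora73b in 8 each, Snora20 in 7, Snora23 in 6 and Snord52 in 5. The features annotated to Snord14a and Rps13 and to Snora17 and Snhg7 lost theirs in 5 and 4 of 17. With paraquat, Snora69 lost its call in 11 of 18 and Snord15a in 3, and the feature annotated to Snora52 and Rplp2 in 3 of 17.

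**Figure D1:**
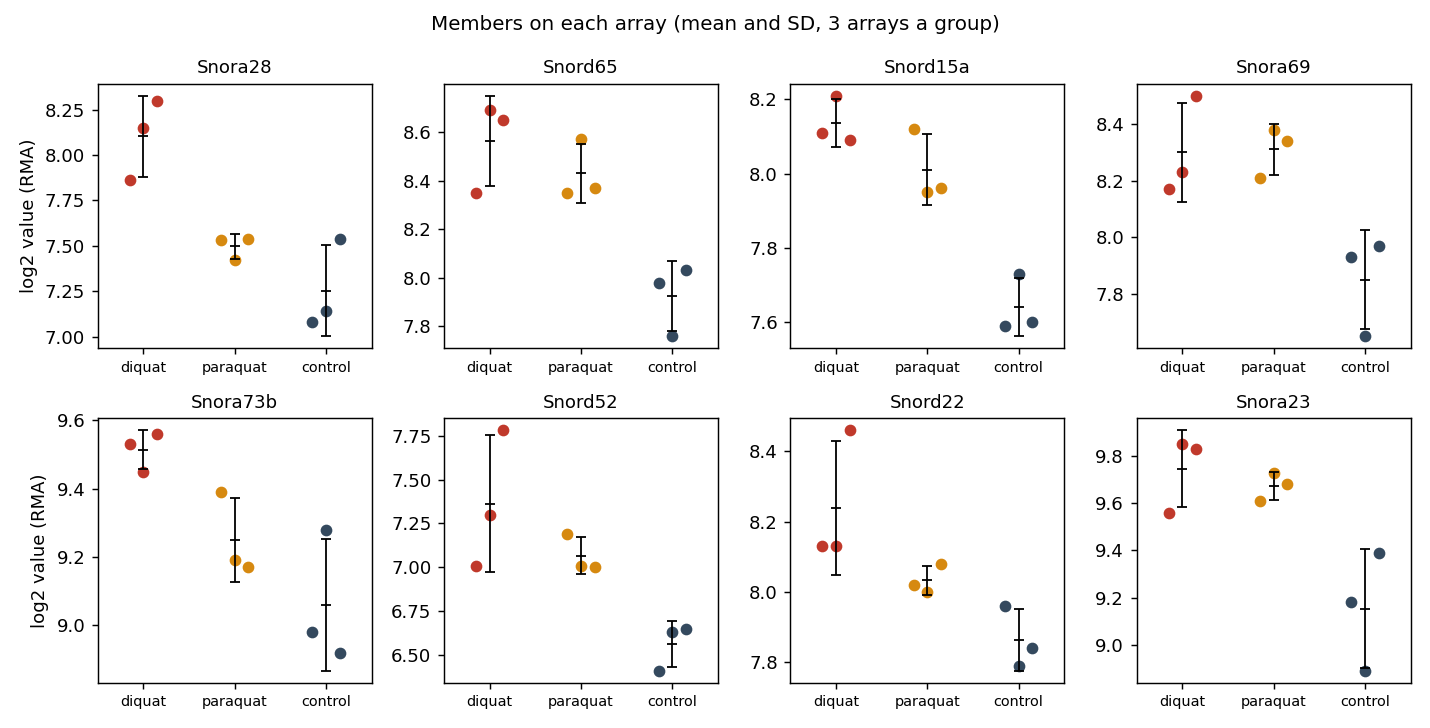
Log2 values (y axis) of 8 snoRNAs that passed the test with diquat, in diquat, paraquat and control cells (x axis). Points are arrays in order of replicate number and bars give the mean and SD of 3 arrays; the y axes differ and do not start at 0. For Snord15a the diquat arrays lie between 8.09 and 8.21 and the control arrays between 7.59 and 7.73.

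The largest log2 fold changes were mostly not those that passed. Snord69 had the highest log2 fold change with diquat, 0.99, but its values were 7.26, 8.23 and 8.85 in diquat cells against 6.79, 7.09 and 7.48 in control cells, and its adjusted p was 0.158. The diquat and control ranges overlapped. Of 35 features with a log2 fold change of at least 0.5 with diquat, 9 passed, and of 16 with paraquat, 1 passed. The spread within groups was wide for these RNAs: the median residual SD was 0.196 for C/D, 0.162 for H/ACA and 0.0964 for Scarna features, against 0.0645 for all features.

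Over whole classes, the median log2 fold change with diquat was 0.38 for C/D features, 0.38 for H/ACA features and 0.06 for Scarna features, against -0.01 for all features. With paraquat it was 0.25 for C/D, 0.21 for H/ACA and 0.08 for Scarna features, against 0 for all features. The change was above 0 for 98 of 109 features with diquat and for 101 of 109 with paraquat, where the shares over all features were 42.9% and 50.4%. These medians describe the classes and were not tested between classes.

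**Figure D2:**
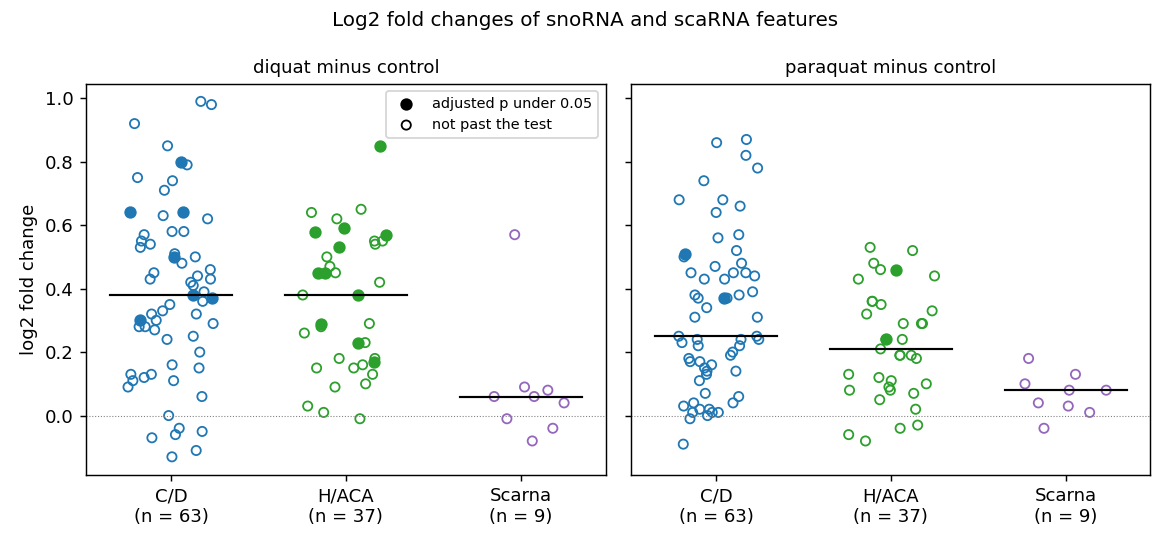
Log2 fold changes (y axis) of the 63 C/D, 37 H/ACA and 9 Scarna features (x axis) for diquat minus control (left) and paraquat minus control (right). Filled points passed an adjusted p of 0.05, open points did not, and lines mark class medians; the C/D and H/ACA medians with diquat are both 0.38 and the Scarna median is 0.06.

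The 3 diquat arrays differed in these RNAs. The median difference of the C/D features from their control mean was 0.07, 0.32 and 0.62 on diquat replicates 1, 2 and 3 and 0.33, 0.31 and 0.22 on the paraquat arrays, against -0.04, 0.01 and 0.06 on the control arrays. For H/ACA features it was 0.21, 0.38 and 0.37 on diquat arrays and 0.25, 0.24 and 0.17 on paraquat arrays, against -0.07, 0.02 and 0.04 on control arrays. The class medians of C/D and H/ACA features were thus higher on all 6 treated arrays than on any control array. For all features the medians lay between -0.02 and 0.01 on all arrays. Diquat replicate 1 was the lowest of its group for 77 of the 109 features (70.6%, against 24.1% of all features), and diquat replicate 3 was the highest for 75 (68.8%, against 30.7%). Control replicate 1 was the lowest control array for 58 (53.2%, against 23.9%). The cause of this shared variation was not tested.

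**Figure D3:**
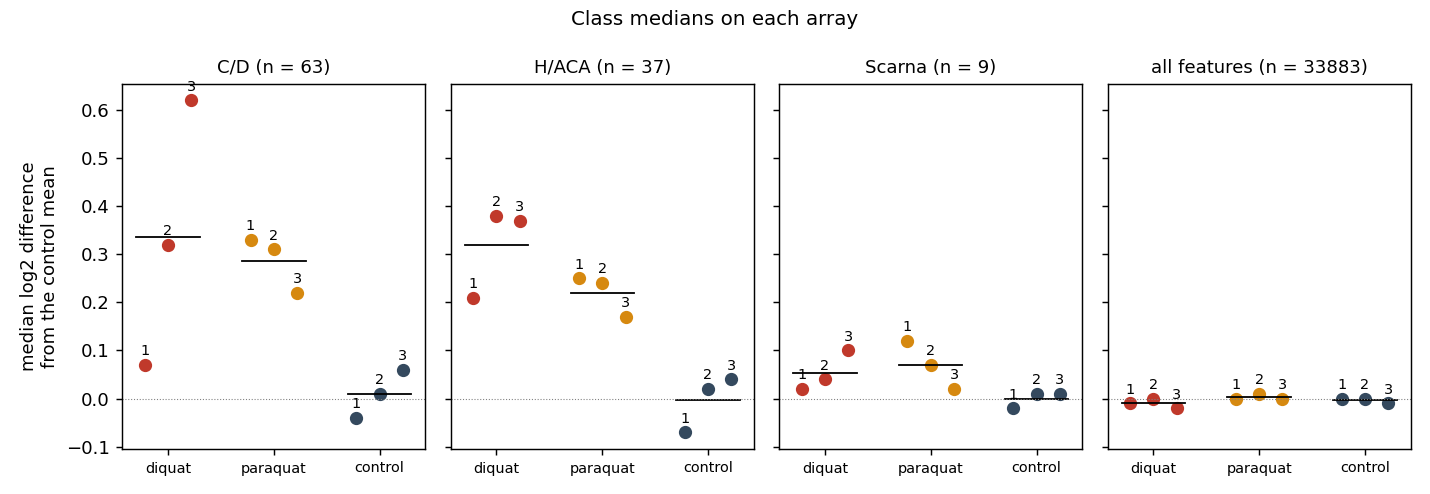
Median log2 difference from the control mean (y axis) for C/D, H/ACA, Scarna and all features (panels) on each diquat, paraquat and control array (x axis, points numbered by replicate; lines mark group means). C/D medians run from 0.07 to 0.62 over the diquat arrays, against -0.04 to 0.06 over the control arrays.

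**Figure D4:**
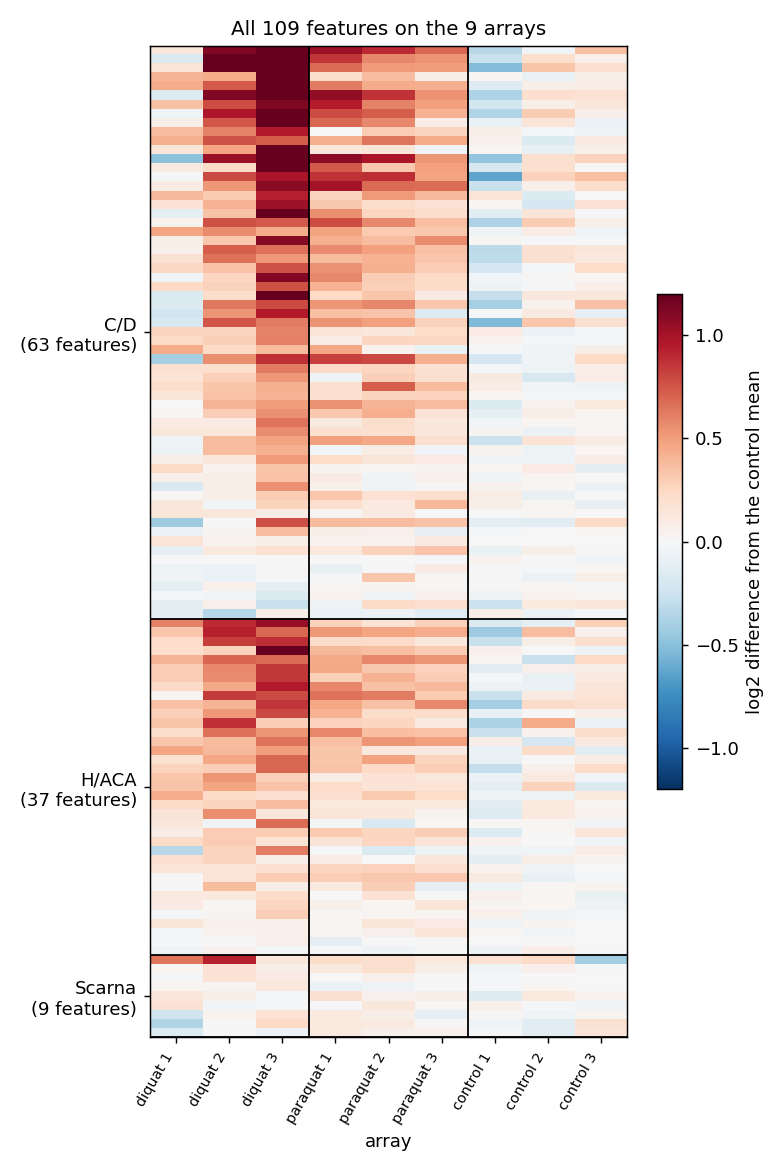
All 109 features (rows, sorted by their change with diquat within each class) on the 9 arrays (columns), coloured by log2 difference from the control mean and limited to the range of the colour bar. The C/D and H/ACA rows are mostly above 0 on treated arrays. Among diquat arrays, the medians of both classes are lowest on replicate 1, and the C/D median is highest on replicate 3.

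The second comparison asked the same of paraquat. Of the 109 features, 4 rose (3.67%) and 0 fell by limma with adjusted p under 0.05, against 1.66% of all features that rose and 1.27% that fell (2.93% in either direction). The 4 were Snord65, Snora69, Snord15a and the feature annotated to Snora52 and Rplp2, and all 4 also rose with diquat, which shares the control arrays. That last feature had log2 values of 11.83, 11.82 and 11.87 in diquat cells and 11.92, 11.94 and 11.86 in paraquat cells, against 11.71, 11.62 and 11.67 in control cells, and a log2 fold change of 0.24 with paraquat (adjusted p = 0.0101). At an unadjusted p under 0.05, 41 of the 109 were higher (37.6%, against 6.26%). The paraquat arrays lay above all control arrays for 58 of the 109 (53.2%, against 8.8% of all features) and below for 0 (against 8.36%). Of the 109, 29 had every diquat and every paraquat array above the controls (26.6%, against 5.17% of all features), in comparisons that share the control arrays.

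The paraquat count was 17 with array weights, 14 without diquat replicate 3, 13 with paraquat and control arrays alone, and 1 without control replicate 1 or without paraquat replicate 2. Without paraquat replicate 3, control replicate 2 or control replicate 3 it was 2, and without diquat replicate 1 it was 7. Over all features, the 562 rises with paraquat became 840 with array weights, 691 without diquat replicate 3 and 615 in the 2-group fit. They became 376, 314 and 342 without control replicates 1, 2 and 3. Without paraquat replicates 2 and 3 they were 334 and 313, and without diquat replicate 1 they were 512. The largest paraquat values in the C/D class were those of Snord69 (0.87), Snord53 (0.86), Snord73b (0.82) and Snord82 (0.78), and none of them passed. Snord82, inside nucleolin (Ncl), had log2 values of 10.17, 10.59 and 11.15 in diquat cells and 11.07, 10.75 and 10.74 in paraquat cells, against 9.80, 10.13 and 10.28 in control cells, with an adjusted p of 0.12 for paraquat. The paraquat arrays were all above the controls, and 1 diquat array lay within the control range. The lowest C/D features with 1 symbol were Snord23 (0.02), Snord61 (0.01), Snord73a (0.01) and Snord90 (-0.01), none past the test; the lowest of the class was the feature annotated to Snord7 and other symbols, at -0.09, named after its value was seen. In the H/ACA class Snora33 (0.53), Snora23 (0.52), Snora31 (0.48) and Snora15 (0.46) were highest, and Snora44 (0.07), Snora35 (-0.04), Snora30 (-0.06) and Snora2b (-0.08) were lowest among features with 1 symbol, with none past the test.

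The direct comparison of paraquat with diquat, at doses that differ, gave 0 features past an adjusted p of 0.05 by limma, both among the 109 and among all 33883. At an unadjusted p under 0.05 it gave 12 of the 109 (11%), against 9.6% of all features, and 2 of them were higher in paraquat cells (1.83%, against 5.32% of all features). All paraquat arrays lay above all diquat arrays for 1 of the 109, against 5.41% of all features, and below for 11 (10.1%, against 4.43%). Thus the larger number of calls with diquat is not a shown difference between the compounds. For Snora28 the difference, paraquat minus diquat, was -0.61 with a 95% interval from -0.90 to -0.31 and an adjusted p of 0.396. For Snord15a it was -0.13, with an interval from -0.26 to 0.01, and for Snora69 it was 0.01, with an interval from -0.22 to 0.24.

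The Scarna class stood low in both comparisons. Scarna6 and Scarna10, which in human cells guide modification of the spliceosomal U5 RNA, had log2 fold changes of 0.06 and 0.06 with diquat and 0.10 and -0.04 with paraquat. Scarna2 and Scarna8, which in human cells act on the U2 RNA, had 0.08 and 0.04 with diquat and 0.01 and 0.04 with paraquat. The feature annotated to Scarna3a and Mir1843b had -0.01 and 0.03, and that annotated to Scarna3b and Mir1843a had 0.09 and 0.13, with diquat and paraquat in that order. Their hairpins, printed above, lie within the scaRNA apart from 1 base of Mir1843a. The feature annotated to Scarna13 and Mir3069 was the exception in size, at 0.57 with diquat (adjusted p = 0.189) and 0.18 with paraquat.
Its log2 values were 8.66, 8.94 and 8.15 in diquat cells and 8.24, 8.21 and 8.14 in paraquat cells, against 8.20, 8.25 and 7.60 in control cells, so the groups overlapped. Both features of Scarna17 had small changes, of -0.04 and -0.08 with diquat and 0.08 and 0.08 with paraquat. No Scarna feature passed the test in either comparison or in any alternative.

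The snoRNAs that act in cleavage of the ribosomal RNA precursor had 5 features. Of these, 3 rose with diquat (against 2.67% of all features), and 0 rose with paraquat (against 1.66%). Snora73b, one of the copies of U17 in the noncoding gene Snhg3, had log2 values of 9.53, 9.45 and 9.56 in diquat cells and 9.39, 9.19 and 9.17 in paraquat cells, against 8.98, 9.28 and 8.92 in control cells. The diquat arrays were all above the controls, and the paraquat arrays overlapped them. Snora73b rose by 0.45 with diquat (adjusted p = 0.0268), a call lost in 8 of 18 other settings, among them the replicate block (adjusted p = 0.0538). Its neighbour Snora73a had a log2 fold change of 0.38 (adjusted p = 0.0726). Snord22, in Snhg1, rose by 0.38 with diquat (adjusted p = 0.0405), with values of 8.13, 8.13 and 8.46 in diquat cells and 8.02, 8.0 and 8.08 in paraquat cells, against 7.96, 7.79 and 7.84 in control cells. The feature annotated to Snord14a and Rps13 is the third, and that annotated to Snord14e and Hspa8, another copy of U14, had 0.25 with diquat and 0.01 with paraquat.

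The snoRNAs of Rpl13a are known from mouse and hamster cells as mediators of lipotoxic and oxidative stress. None of their 4 features passed. The feature annotated to Snord34 and Rpl13a had log2 values of 5.70, 7.08 and 7.78 in diquat cells and 6.73, 6.45 and 6.41 in paraquat cells, against 5.6, 6.08 and 5.93 in control cells. The paraquat arrays were above the controls, but diquat replicate 1 lay within the control range, and the adjusted p with diquat was 0.257. Over the 4, log2 fold changes ran from 0.29 to 0.98 with diquat and from 0.31 to 0.68 with paraquat. The feature annotated to Snord33, Mir5121 and Rpl13a, whose hairpin is printed above, was the smallest in both, at 0.29 and 0.31.

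Of the other groups, the 4 features in Snhg12 had 0.09 to 0.58 with diquat and 0.07 to 0.74 with paraquat, and the 2 in Ncl had 0.57 to 0.64 with diquat and 0.19 to 0.78 with paraquat. The 2 in Nop56 had 0.11 to 0.71 with diquat and 0.37 to 0.45 with paraquat. Snord47, in Gas5, had 0.74 with diquat and 0.64 with paraquat, and the Snord116 feature of an imprinted cluster had 0.16 and 0.04, in the same order. None of these passed. Among the features, 4 are common choices for normalizing PCR of small RNAs (Snord47, Snord61, Snord72 and the feature annotated to Snord68 and Rpl13). Their log2 fold changes ran from 0.11 to 0.74 with diquat and from 0.01 to 0.64 with paraquat, and 0 of 4 passed. By mean level Snord47, which had the largest changes, lay at percentile 92.5 of all features. Snord61, Snord72 and the Snord68 feature lay at percentiles 7.51, 21.9 and 21.2, so their values may be background. No feature was found for the snoRNAs listed in Taf1d and Dkc1.

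Of 27 measured genes for the proteins that carry, build and trim these particles, 2 rose with diquat (against 2.67% of all features) and 0 with paraquat (against 1.66%). None of the 3 C/D core proteins measured (Nop56, Nop58 and Snu13) and none of the 4 H/ACA core proteins (Dkc1, Nop10, Nhp2 and Gar1) passed in either comparison. Of 9 assembly factors, Shq1, which chaperones dyskerin before assembly, rose by 0.39 with diquat (adjusted p = 0.0338), and Znhit6, a factor for C/D assembly, rose by 0.22 (adjusted p = 0.0453). With paraquat 0 of 9 passed. None of 4 Cajal body and nucleolar factors and none of 7 debranching and trimming factors passed with either compound. The debranching enzyme Dbr1, which opens intron lariats, had 0.04 with diquat and -0.01 with paraquat.

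Position in the RefSeq gene table of GRCm38.p6 placed 107 of the 109 features inside a longer gene, in 79 hosts, and Snord89 and Scarna2 in none. Neither the strand nor the position within an intron was checked. The 29 features in 21 ribosomal protein genes had median log2 fold changes of 0.45 with diquat and 0.36 with paraquat, and 6 rose with diquat and 3 with paraquat. The 33 in 21 long noncoding RNA genes had 0.38 with diquat and 0.18 with paraquat, with 9 and 1 called in that order. The 45 in 37 other protein-coding genes had 0.20 with diquat and 0.14 with paraquat, with 3 and 0 called. Over all features, 2.67% rose with diquat and 1.66% with paraquat. The differences between these kinds of host were not tested.

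For 61 features the host had a feature of its own (46 hosts). The median log2 fold change with diquat was 0.45 over the 61 features and 0.09 over the 46 hosts, each host counted once. With paraquat the medians were 0.24 and 0.09. The member's change exceeded that of its host in 51 of 61 pairs with diquat and 44 of 61 with paraquat. Some host features were dim. Those of Rpl17, Rpl37, Htr2c, Snhg18 and Snhg9 lay below the median of all feature means (6.02) on every control array. Their values may be background, so a change in such a host could be missed. Of the 46 hosts, 7 rose with diquat (against 2.67% of all features) and 6 with paraquat (against 1.66%), and 0 fell. Across pairs the Pearson correlation of the 2 changes was 0.32 with diquat and 0.36 with paraquat, as a description over 61 pairs that share arrays and, in part, hosts.

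**Figure D5:**
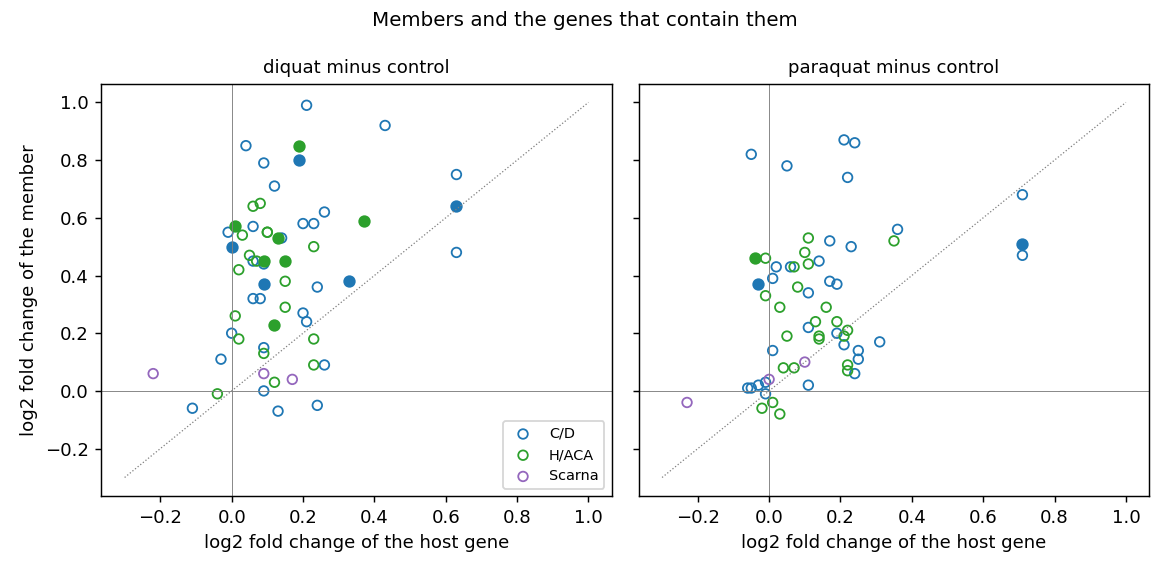
Log2 fold change of a snoRNA or scaRNA feature (y axis) against that of the gene that contains it (x axis) for 61 pairs, diquat minus control (left) and paraquat minus control (right). Filled points are features whose own change passed an adjusted p of 0.05, and the dotted line marks equal change; 51 of 61 points with diquat and 44 of 61 with paraquat lie above it.

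Single pairs are given as values, with no test, since they were taken because the member had passed. With its host Rps3, a protein of the small ribosomal subunit, Snord15a had log2 fold changes of 0.50 with diquat and 0.37 with paraquat, against 0 and -0.03 for Rps3. With diquat, Snora28 had 0.85 and its host Eif5 had 0.19 (adjusted p = 0.0454), and Snora20 had 0.57 and its host Tcp1 had 0.01. Snord65 rose by 0.64 with diquat and 0.51 with paraquat, and its noncoding host 2410006H16Rik rose by 0.63 with diquat (adjusted p = 0.000214) and 0.71 with paraquat (adjusted p = 0.000105). With diquat Snord22 rose by 0.38 and its host Snhg1 by 0.33.

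Members of 1 host had log2 fold changes that spread as follows, with no test of the differences. Among 20 hosts with several members (48 members), the median range within a host was 0.26 with diquat and 0.16 with paraquat. In Gnl3, Snord19 had 0.24 and Snord69 had 0.99 with diquat. In Rps3a1, Snord73a had 0.01 and Snord73b had 0.82 with paraquat, and in Wdr43, Snord92 had 0.06 and Snord53 had 0.86. None of these 6 passed the test, and Snord19, Snord73a and Snord92 lie below the median of all feature means (6.02). The features in Snhg16 were close together, from 0.28 to 0.33 with diquat. All of these but the feature annotated to Snhg16 and Snord1a carry the symbol Snord1b and also lie below that median.

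Host genes of snoRNAs often start in a run of pyrimidines, the mark of genes whose transcripts are under growth-dependent translation. Windows of 20 bases before and 20 bases after the start are shown for 4 of the hosts just described, from RefSeq with build GRCm38.p6. Capitals mark a run of at least 6 C or T within 10 bases of the start.
Rps3 (Snord15a), chr7:99483690-99483729, minus strand: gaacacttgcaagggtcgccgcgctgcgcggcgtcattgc
Eif5 (Snora28), chr12:111538081-111538120, plus strand: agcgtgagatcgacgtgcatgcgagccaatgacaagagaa
2410006H16Rik (Snord65), chr11:62602857-62602896, plus strand: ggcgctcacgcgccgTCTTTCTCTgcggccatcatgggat
Snhg1 (Snord22), chr19:8723467-8723506, plus strand: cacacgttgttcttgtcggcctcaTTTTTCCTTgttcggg

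Such a run was found in 30 of 63 host genes with a window (47.6%), against 32.7% of all genes with one, on the gene's own strand. The windows of 2410006H16Rik and Snhg1 have a run of 9 bases each, and those of Rps3 and Eif5 have none at the listed start. Ipo7, the host of Snora23, has a run of 15 bases, and Rpl39, the host of Snora69, has a run of 8. A match is a description of the letters only.

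The features differed in length and level. The RefSeq length had a median of 87 bases over the 109, with medians of 68 for C/D, 122 for H/ACA and 118 for Scarna members. These spans ran from 48 to 221 bases for C/D, 56 to 205 for H/ACA and 61 to 275 for Scarna members. Whether each span covers the whole RNA was not checked. Across features the Spearman correlation of length with the log2 fold change with diquat was -0.10 over all 109, -0.34 within C/D and 0.13 within H/ACA, as a description. By level, 82 of the 109 lay at or above the median of all feature means (6.02), and 17 lay below the 25th percentile. The array reads transcripts along their length, so a snoRNA feature cannot separate the mature RNA from the unspliced intron. RNA was purified on a silica column, which recovers short RNAs poorly, and the part of this in the results was not tested.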

How the data were processed

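The log2 values were used as deposited; the submitters' processing notes name Affymetrix Expression Console 1.1 and RMA, which corrects background, normalizes arrays and summarizes probes. Settings and annotation build: not given in the sources used here. Detection calls were not used here. Dim features may therefore be background, and precision is limited by how many arrays there are.

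Titles gave groups and replicate numbers. Those numbers are uncertain, since the descriptions call replicates 2 and 3 of both herbicides replicate 1. Features were named from the platform annotation; of 34472 features, 33883 were distinct.

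In limma 3.58.1 under R 4.3.3, lmFit and eBayes fitted all 9 arrays together with a mean for each group and no added normalization. Adjusted p-values use Benjamini-Hochberg over the 33883 features, with a threshold of 0.05. Standard errors and 95% intervals are those of the fit. On simulated data for diquat against control over 33883 features, 67.2% of changes of 0.3, 95.5% of 0.5 and 100% of 1 were recovered. Noise was drawn independently for each feature. The changed features were drawn at random from all features, whose median residual SD was 0.0645, against 0.175 for the 109 members. The shares therefore do not give the recovery for the members, which was not simulated.

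The members and the gene lists were chosen with earlier results of these data known. Named were up to 12 features past the test with the highest and up to 12 with the lowest change per compound, all Scarna features, up to 4 per list, and, with fewer than 8 past the test, the 4 highest and 4 lowest of the C/D and H/ACA classes. Over all features, correlations of same-numbered arrays ran from -0.22 to 0.17. Those of paraquat and control were 0.14, 0.13 and 0.09, the only pair of groups there in which every array correlated best with its own number. Over the 109 members those of diquat and control correlated at 0.59, 0.51 and 0.36, while those of paraquat and control did so at -0.50, -0.12 and -0.29. Since the labels do not tie the numbers, and the correlations over all features were weak and of mixed sign, the numbers were not taken to pair samples. Other settings were a replicate block, a trended robust prior, dim features left out, centring, quantile normalization, 2-group fits, array weights, features with 1 symbol and leaving out each array.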

Additional observations from a re-analysis of the deposited data

Results flagged for a closer look

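One of the 2 features of Scarna17, a scaRNA, was picked up because every diquat array lay below the control mean and every paraquat array lay above it. Its log2 values were 10.16, 10.31 and 10.26 in diquat cells and 10.44, 10.39 and 10.39 in paraquat cells, against 10.31, 10.19 and 10.48 in control cells. The difference, paraquat minus diquat, was 0.16 on the log2 scale, with a 95% interval from 0.01 to 0.32 and an adjusted p of 0.513 by limma over all features. The control arrays ranged from 10.19 to 10.48, which holds all paraquat arrays and all diquat arrays but the lowest. The other Scarna17 feature did not repeat the pattern, with diquat values of 9.16, 9.52 and 9.76 against a control mean of 9.52. Its difference, paraquat minus diquat, was 0.12, with a 95% interval from -0.18 to 0.42.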

How the results depend on the processing

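All calls among the 109 features were rises under all 17 other settings listed in the methods and the 1 added later, and no Scarna feature was called in any. The number of rises with diquat, 18, became 4 in a fit of the 2 groups compared, and leaving out 1 array gave 3 to 29. With paraquat, 4 became 7 with dim features left out, 7 with quantile normalization, 13 in the 2-group fit and 17 with array weights, and leaving out 1 array gave 1 to 14. Over all features, 1439 with diquat became 798 in the 2-group fit and 700 to 1800 without 1 array, and 993 with paraquat became 1646 with array weights and 479 to 1222 without 1 array. Between paraquat and diquat, 0 became 5 with quantile normalization and 0 to 1 without 1 array. Of all calls with diquat, 62.9% were rises, against 78.7% after centring and 50.3% after quantile normalization.

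The setting without control replicate 1, diquat replicate 1 and diquat replicate 3 was chosen after seeing on which arrays these RNAs stood apart, and leaves 1 diquat array, which is assumed to vary like the other groups. It gave 1 and 2 features with diquat and paraquat, and 113 and 366 over all features. The median was then 0.03 for the Scarna class with diquat, 0.15 for H/ACA with paraquat and -0.01 for Scarna between paraquat and diquat.

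Class medians kept their sign against control in every alternative. The C/D median with paraquat, 0.25, became 0.38 with dim features left out and 0.37 with 1 symbol. The Scarna median with diquat became 0.09 after centring. Without 1 array the medians ran from 0.20 to 0.51 (C/D), 0.28 to 0.41 (H/ACA) and 0.04 to 0.10 (Scarna) with diquat, and from 0.25 to 0.35, 0.15 to 0.24 and 0.02 to 0.09 with paraquat. Between paraquat and diquat they ran from -0.21 to 0.06, -0.20 to -0.05 and -0.04 to 0.06, in the same order of classes.

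The replicate block called 17 features with diquat and 4 with paraquat, of which 15 and 3 were among the 18 and 4 called without it. Over all features it called 1193 and 790. Every array correlated best with its own number only for paraquat and control over all features, and only for diquat and control over the 109.

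Of 883 values of named features under alternatives, 754 kept direction and side of the threshold, 91 lost the call, 10 gained it and 28 changed sign, all of the last from changes near 0 or from Scarna13. With diquat, Scarna3a became 0.02 after centring and 0.02 after quantile normalization, and ran from -0.10 to 0.10 without 1 array, Scarna17 from -0.18 to 0.12, Scarna6 from -0.02 to 0.11 and Scarna8 from -0.02 to 0.08. With paraquat, Snord61 became 0 after quantile normalization and ran from -0.02 to 0.06, Snord73a became 0 with array weights and ran from -0.02 to 0.04, Scarna3a from -0.02 to 0.09, Scarna2 from -0.01 to 0.03, Scarna8 from 0 to 0.08, Scarna13 from -0.03 to 0.30, Snora30 from -0.10 to 0, Snora35 from -0.06 to 0.01, Snord23 from -0.01 to 0.05 and Snord90 from -0.03 to 0.01. Without the 3 arrays, Scarna6 and Scarna8 became 0 and Scarna3a 0.05 with diquat, and Snord23 became -0.01 and Snord90 0.01 with paraquat. The cause of these differences was not tested.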
